A study of Mus musculus with 8 samples.

Results

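The proteasome is the protease complex that degrades ubiquitin-tagged proteins, and the genes described here encode its constitutive subunits, its activators and the chaperones that assemble it. They were taken as every non-control probe whose gene symbol begins with Psma, Psmb, Psmc, Psmd, Psme or Psmg followed by a digit, leaving out Psmb8, Psmb9 and Psmb10, the catalytic subunits of the immunoproteasome. This rule found 46 genes on 57 probes among the 19751 genes and 39429 probes of the array. Of these, 44 genes on 55 probes are subunits, activators or assembly chaperones. The other 2, Psmc3ip and Psme3ip1, only carry the name of a subunit and are given apart.

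The study asked how aging changes gene expression in the hippocampus, a brain region needed for memory. RNA from hand-dissected hippocampi of untreated wild-type C57BL/6J mice, aged in their home cages, was hybridised to 1-colour microarrays, where the brightness of a Cy3-labelled spot reports the abundance of a transcript. Mice aged 3 months (3M) gave 4 samples and mice aged 29 months (29M), close to the end of the life span of this strain, gave 4 samples, with 1 array for each. The samples are called 3M 1 to 3M 4 and 29M 1 to 29M 4 by the numbers in their titles, and the labels do not give the sex of the mice or state that no tissue was pooled.

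In the core of the proteasome, rings of alpha subunits gate the entry and rings of beta subunits hold the active sites that cut peptide bonds. A regulatory particle, made of a base with ATPases that unfold the substrate and a lid that removes its ubiquitin, feeds proteins into the core. Other caps, the proteasome activators, open the core without ubiquitin. When interferon signals reach a cell, Psmb8, Psmb9 and Psmb10 take the places of Psmb5, Psmb6 and Psmb7 in newly made cores, which changes the peptides that are released. Nfe2l1, a transcription factor that is itself degraded by the proteasome, raises the transcription of proteasome genes when the proteasome is inhibited. It acts through the antioxidant response element.

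Of the 44 proteasome genes, 36 had a promoter in the RefSeq table of assembly GRCm38.p6, here a window from 250 bases before to 50 bases after the transcription start. The core of the antioxidant response element, TGANNNNGC on either strand, stood in the promoters of 21 of these 36 genes (58.3%), against 45.0% of all 27025 genes with a promoter in the table. The CCAAT box (CCAAT on either strand), which binds the factor NF-Y, stood in 13 of 36 (36.1%) against 41.1% of all genes. The interferon-stimulated response element, searched on either strand as GAAA, any pair of bases and GAAA, stood in 5 of 36 (13.9%), namely Psmd4, Psmd9, Psmb3, Psmg4 and Psme1, against 3.99% of all genes. Matches of different motifs may overlap and were counted separately, and a match describes the letters only. Psmb5 and Psmb8 are shown as the constitutive and the immune subunit of the same active site, and Psme1 as an activator gene that is known to respond to interferon. Capitals mark matches of the antioxidant response element core or of the interferon-stimulated response element, and each sequence runs 5′ to 3′ in the direction of the gene.
Psmb5 promoter, chr14:54617946-54618245, minus strand: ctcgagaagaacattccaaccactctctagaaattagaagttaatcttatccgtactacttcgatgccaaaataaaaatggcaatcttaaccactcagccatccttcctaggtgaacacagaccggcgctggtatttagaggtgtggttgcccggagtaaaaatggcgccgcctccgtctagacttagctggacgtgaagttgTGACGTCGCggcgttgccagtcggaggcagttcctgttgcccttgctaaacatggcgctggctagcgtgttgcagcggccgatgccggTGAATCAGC
Psmb8 promoter, chr17:34197945-34198244, plus strand: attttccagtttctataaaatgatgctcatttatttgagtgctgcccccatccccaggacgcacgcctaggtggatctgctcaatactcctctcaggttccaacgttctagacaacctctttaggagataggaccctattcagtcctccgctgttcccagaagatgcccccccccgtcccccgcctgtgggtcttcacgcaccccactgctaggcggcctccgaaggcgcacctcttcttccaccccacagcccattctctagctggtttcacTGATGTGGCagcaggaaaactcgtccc
Psme1 promoter, chr14:55578244-55578543, plus strand: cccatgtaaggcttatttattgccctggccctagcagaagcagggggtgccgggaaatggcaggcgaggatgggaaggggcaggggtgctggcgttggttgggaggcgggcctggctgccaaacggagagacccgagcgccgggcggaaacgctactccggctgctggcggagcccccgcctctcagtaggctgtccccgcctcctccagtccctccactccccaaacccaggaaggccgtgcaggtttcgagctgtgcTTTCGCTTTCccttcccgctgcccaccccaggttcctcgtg

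The Psmb5 window held 2 antioxidant response element cores and no interferon-stimulated response element. The Psmb8 window held 1 such core and also no interferon-stimulated response element, although Psmb8 is an interferon-responsive gene. The Psme1 window held 1 interferon-stimulated response element, written there on the opposite strand, and no antioxidant response element core.

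Of the 43020 non-control spots on each array, 76.2% (3M 1) to 85.0% (3M 4) were well above background, none was saturated, and any pair of arrays correlated with r from 0.992 to 0.998 across probes, which are not independent replicates. The arrays lay on 3 slides by the barcode in the name of each scan, since the sample titles give no slide. Slide 1 held 3M 1, 29M 3 and 29M 4, and slide 2 held 3M 2 and 29M 2. On slide 3 were 3M 3, 3M 4 and 29M 1. Array 3M 1 stood apart from the other 3M arrays for several genes named here, and their values without it are given beside them. All 16 neuronal markers examined, among them the hippocampal genes Prox1 and Neurod6, were well above background on all 8 arrays, and none of them was called. The 8 choroid plexus markers were also above background on every array, with a mean level of 13.46 to 14.89 in 3M and 14.06 to 14.45 in 29M, ranges that overlapped. Levels are normalized log2 intensities, on which a difference of 1 is a doubling for bright probes, while changes of dim probes are understated. Where a gene had several probes, the values are those of the brightest on average unless a second probe is named. To be called, a gene or probe needed a limma adjusted p below 0.1 together with a log2 change of 0.5 or more in size (1.414-fold).

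No proteasome gene was called as higher or lower in 29-month-old mice. The count was 0 of 44 genes and 0 of 55 probes, where 2.21% of the 19735 named genes tested and 1.97% of the 39408 probes tested were called (1.21% of the probes as higher and 0.761% as lower in 29M). Without the threshold on size the count of genes was also 0, since the lowest limma adjusted p among the 44 genes was 0.301 (Psmg4) and that among the 55 probes was 0.279 (the second probe of Psmd12). An unadjusted limma p under 0.05 was reached by 0 of the 44 genes and by 1 of the 55 probes, against 17.3% of all named genes. The values of the age groups overlapped for all 44 genes, whereas 11.6% of all named genes had groups without overlap. As whole tissue was measured, fewer cells of a type and less RNA per cell cannot be told apart.

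The estimates lay close to 0. Log2 changes from 3M to 29M had a median of 0.07 over the 44 genes and of 0.01 over all named genes, and they ranged from -0.21 for Psmc1 to 0.48 for Psmb11, which was near background. The change was positive for 32 of 44 genes (72.7%), against 52.7% of all named genes. The 95% interval of the change lay inside -0.5 to 0.5 for 39 of the 44 genes (88.6%) and for 71.6% of all named genes. For these 39 genes a change of 1.414-fold or more in either direction therefore lay outside the interval. The exceptions were Psma8, Psmb11, Psmb2, Psmd14 and Psmg4.

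**Figure D1:**
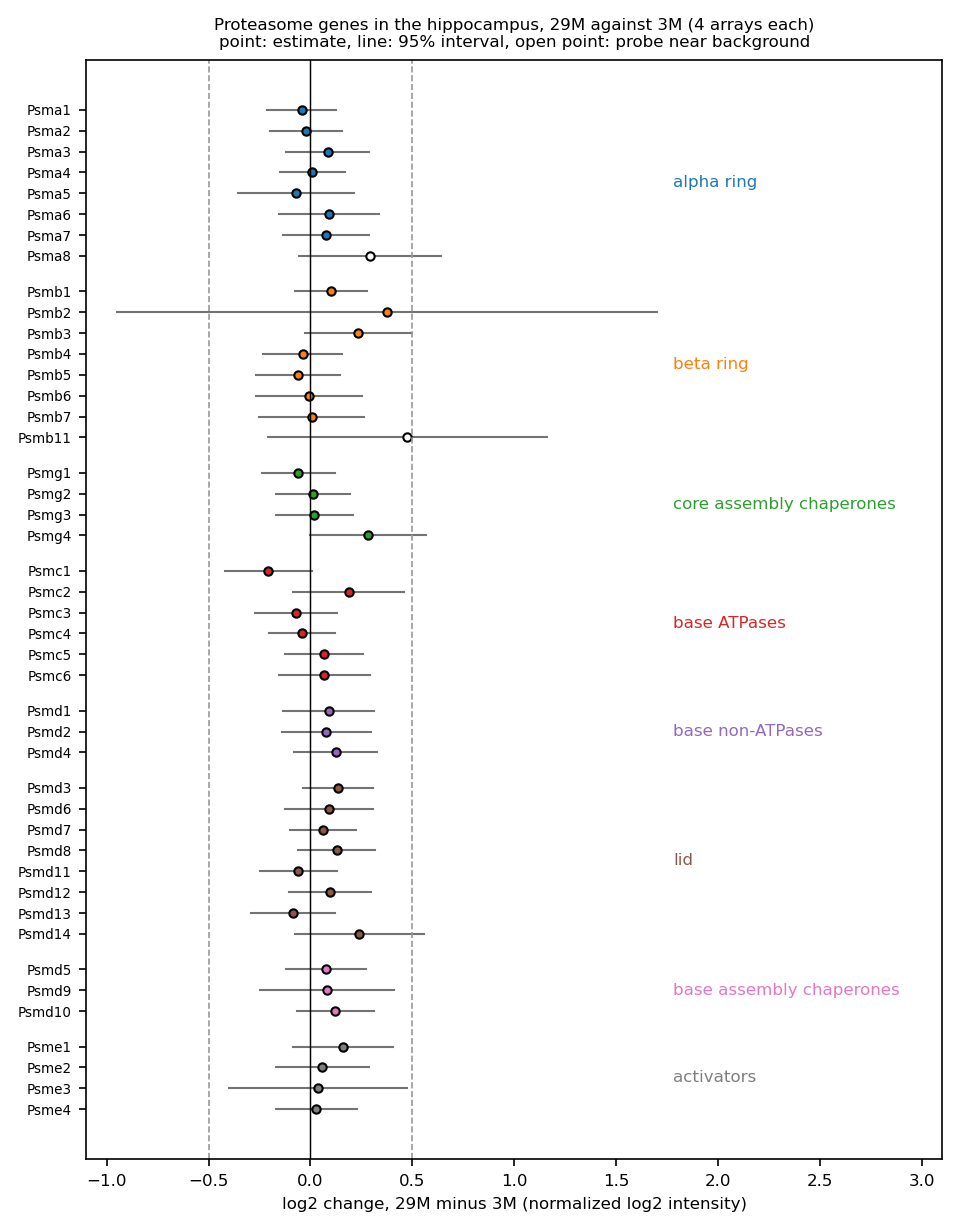
Log2 change from 3M to 29M (horizontal axis, normalized log2 intensity) of each of the 44 proteasome genes, grouped and coloured by role, with 4 arrays in each group. Points are limma estimates, horizontal lines are 95% intervals, dashed lines mark -0.5 and 0.5, and open points are the genes not well above background. Of the intervals, 39 lie between the dashed lines, and that of Psmb2 is the widest.

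Replicates of these genes lay close together. Over the 42 genes well above background on all 8 arrays, the median SD between arrays was 0.13 in 3M and 0.11 in 29M, and 35 of the 42 had an SD under 0.2 in both groups. The median standard error of the change was 0.09 over the 44 genes, and it was 0.11 over all named genes. Where 11 genes had 2 probes each, 6 had the same sign on both, and the log2 changes of the 2 probes differed by at most 0.14. The remaining 33 genes rest on 1 probe.

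The alpha ring comprises Psma1 to Psma7, which are made in all tissues, and Psma8, a form of the testis. None of these 8 genes was called. Their log2 changes had a median of 0.04, with 5 positive and 3 negative, and the 7 genes above background lay between -0.07 (Psma5) and 0.09 (Psma6). Psma6 was at 0.19 (limma adjusted p 0.241) without 3M 1, which was its highest array of 3M. Psma8 was well above background on no array of 3M and on 2 of the 4 arrays of 29M. It was at 5.72, 5.95, 5.78 and 5.62 in 3M and at 6.44, 6.22, 5.80 and 5.78 in 29M, where the highest values were those of 29M 1 and 29M 2 and the groups overlapped. With the 3M arrays raised to the lowest level well above background, the mean of Psma8 was 1.12-fold higher in 29M. That ratio is no lower bound, since only 2 of the 4 arrays of 29M were well above background. The plain log2 change of Psma8 was 0.29 and was not called (limma adjusted p 0.379). Its interval, -0.06 to 0.64, included no change. Without 29M 1 the plain log2 change of Psma8 was 0.17 in place of 0.29.

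The beta ring comprises Psmb1 to Psmb7 and Psmb11, a form known from the cortex of the thymus. None of these 8 genes was called, with 5 positive and 3 negative log2 changes and a median of 0.05. The active sites lie in Psmb5, which cuts after hydrophobic residues, Psmb6, which cuts after acidic ones, and Psmb7, which cuts after basic ones. Psmb5 was at 16.75, 16.66, 16.71 and 16.85 in 3M and at 16.56, 16.56, 16.79 and 16.83 in 29M. Its change was -0.06 (SE 0.09, 95% interval -0.27 to 0.14). Psmb6 was at 16.38, 16.04, 16.10 and 16.48 in 3M and at 16.10, 16.22, 16.26 and 16.39 in 29M, a change of -0.01 (SE 0.12, 95% interval -0.27 to 0.25). Psmb7 was at 14.82, 15.02, 14.83 and 15.15 in 3M and at 15.21, 14.78, 14.87 and 14.99 in 29M. Its change was 0.01 (SE 0.12, 95% interval -0.25 to 0.27). For all 3 the groups overlapped, and no array was the lowest or the highest for all of them. The changes of Psmb6 and Psmb7 were so small that their sign turned under several settings. The second probe of Psmb5 gave 0.04 (SE 0.07).

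Of the structural beta subunits, Psmb1, Psmb3 and Psmb4 had log2 changes of 0.10, 0.24 and -0.04, each with a standard error of 0.08 to 0.12. Psmb3 was named here after its values were seen because it was among the higher estimates. It was at 15.85, 16.22, 16.08 and 15.97 in 3M and at 16.20, 16.06, 16.32 and 16.50 in 29M (limma adjusted p 0.348). Its highest values were those of 29M 3 and 29M 4, and the groups overlapped. The change of 0.24 was 0.06 with the processed signal scaled to its 75th percentile, 0.07 when that signal was variance stabilised, and 0.16 to 0.31 when each array was left out in turn. Psmb2 stood apart from every other proteasome gene by its spread, and it is described for that reason. It was at 7.81, 10.94, 10.49 and 9.56 in 3M and at 9.96, 10.44, 9.42 and 10.48 in 29M, so 3M 1 was the lowest and 3M 2 the highest of the 8 arrays. Its change of 0.38 (SE 0.59, 95% interval -0.95 to 1.70) became -0.25 (SE 0.34) without 3M 1, so that 1 array set its direction. Psmb11 was well above background on 1 array only, 29M 1, at 6.96, with the other 3 arrays of 29M at 5.37 to 5.60 and those of 3M at 5.23 to 5.54. Its log2 change of 0.48 (limma adjusted p 0.471) was 0.11 without 29M 1, so that no fold is given for it.

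Assembly of the core is guided by Psmg1 to Psmg4, which pair up to order the alpha ring. None of the 4 was called. Psmg1, Psmg2 and Psmg3 had log2 changes of -0.06, 0.01 and 0.02, and the second probe of Psmg1 gave 0.07. Psmg4, named after its values were seen as the gene with the lowest adjusted p of the 44, was at 13.25, 13.00, 12.78 and 13.09 in 3M and at 13.18, 13.26, 13.21 and 13.59 in 29M. Its highest value was that of 29M 4, while 3M 1 lay within the 29M range, so the groups overlapped. The change was 0.28 (SE 0.13, 95% interval -0.00 to 0.57, limma adjusted p 0.301). When each array was left out in turn it ranged from 0.19 (without 29M 4, limma adjusted p 0.526) to 0.35 (without 3M 1, limma adjusted p 0.155).

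The base holds 6 ATPases, Psmc1 to Psmc6, which unfold substrates and thread them into the core. None was called, and with 3 positive and 3 negative log2 changes the median was 0.01. The extremes, both named after their values were seen, were Psmc1 and Psmc2. Psmc1 was at 16.75, 16.66, 16.62 and 16.67 in 3M and at 16.32, 16.32, 16.65 and 16.57 in 29M, so 29M 1 and 29M 2 were lowest and 29M 3 lay within the 3M range. Its change was -0.21 (SE 0.10, 95% interval -0.42 to 0.01, limma adjusted p 0.312), and its second probe gave -0.14 (SE 0.10). On the first probe the change was -0.11 with the processed signal scaled to its 75th percentile and -0.10 when that signal was variance stabilised. It was larger, at -0.26, with slide as a fixed block (limma adjusted p 0.184) and at -0.27 without 29M 3 (limma adjusted p 0.186). In both of these the unadjusted limma p was under 0.05. Within slides 1, 2 and 3 the difference of 29M minus 3M on the first probe was -0.14, -0.34 and -0.32. Psmc2 was at 15.81, 15.49, 15.47 and 15.26 in 3M and at 15.56, 15.64, 15.70 and 15.87 in 29M, a change of 0.19 (SE 0.12, limma adjusted p 0.473), and its second probe gave 0.07. There 3M 1 was the second highest of the 8 arrays, and without it the change was 0.29 (limma adjusted p 0.159). The change was 0.11 without 3M 4, 0.00 with the processed signal scaled to its 75th percentile and 0.02 when that signal was variance stabilised.

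The base also holds Psmd1 and Psmd2, the scaffolds on which it is built, and the ubiquitin receptor Psmd4. Their log2 changes were 0.09, 0.08 and 0.12, and none was called. Psmd5, Psmd9 and Psmd10 are chaperones that hold the ATPases until the base is complete. Their log2 changes were 0.08, 0.08 and 0.12, and none was called. The second probes of Psmd9 and Psmd10 gave 0.17 and 0.08. Psmd9 was lowest on 3M 1, and without that array its change on the first probe was -0.06.

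The lid comprises Psmd3, Psmd6, Psmd7, Psmd8, Psmd11, Psmd12, Psmd13 and the deubiquitinase Psmd14, which cuts the ubiquitin chain from the substrate. None of the 8 was called. Of their log2 changes 6 were positive and 2 negative (Psmd11, -0.06, and Psmd13, -0.09), with a median of 0.09. Psmd14, named after its values were seen, was at 13.54, 12.94, 12.86 and 12.96 in 3M and at 13.27, 13.30, 13.38 and 13.31 in 29M. The 29M arrays lay close together (SD 0.05, n = 4) and above 3 of the 4 arrays of 3M, and 3M 1 was the highest of all 8. The change was 0.24 (SE 0.14, limma adjusted p 0.430) with all arrays and 0.40 (SE 0.08, limma adjusted p 0.0284) without 3M 1, still below the size threshold of 0.5. With slide as a fixed block it was 0.16. It was 0.32 with the processed signal scaled to its 75th percentile and 0.33 when that signal was variance stabilised (limma adjusted p 0.397 and 0.331). Psmd3, a structural subunit, was 0.13 higher on the log2 scale (SE 0.08, limma adjusted p 0.415), and 0.06 higher with the processed signal scaled to its 75th percentile. Psmd12, also structural, had a log2 change of 0.10 (SE 0.09) on its first probe and of 0.19 (SE 0.08, limma adjusted p 0.279) on its second, which was the 1 probe of 55 with an unadjusted limma p under 0.05. The first probe gave 0.15 with the processed signal scaled to its 75th percentile and 0.16 when that signal was variance stabilised.

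The activators comprise Psme1 and Psme2, which form 1 cap together and are known to be raised by interferon, Psme3, a nuclear relative, and Psme4, a large single-chain cap. None of the 4 was called. Psme1 was at 14.68, 14.39, 14.21 and 14.49 in 3M and at 14.56, 14.47, 14.72 and 14.67 in 29M, a change of 0.16 (SE 0.11, 95% interval -0.09 to 0.41, limma adjusted p 0.502). As 3M 1 was the second highest and 3M 3 the lowest of the 8 arrays, the change was 0.24 (limma adjusted p 0.220) without 3M 1 and 0.08 (limma adjusted p 0.747) without 3M 3. Psme2 was at 14.93, 14.78, 14.50 and 14.81 in 3M and at 14.79, 14.85, 14.90 and 14.71 in 29M, and the groups overlapped throughout, with a change of 0.06 (SE 0.10, 95% interval -0.17 to 0.29). Its second probe was the 1 probe of 55 whose groups did not overlap, against 11.1% of all probes. That probe was at 12.55, 12.53, 12.50 and 12.64 in 3M and at 12.67, 12.70, 12.70 and 12.71 in 29M. Its change was 0.14 (SE 0.07, limma adjusted p 0.334), or 1.10-fold. Psme3 and Psme4 had log2 changes of 0.04 (SE 0.20) and 0.03 (SE 0.09).

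The genes only named after a subunit were not called either. Psmc3ip, a factor of meiotic recombination, had a log2 change of -0.14 (SE 0.10), and Psme3ip1, which binds Psme3, of 0.05 (SE 0.07).

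The median level of the proteasome genes was next set out array by array. When the mean of each of the 42 genes above background was set to 0, the median deviation of the 42 was 0.09 on 3M 1, -0.06 on 3M 2, -0.08 on 3M 3 and -0.01 on 3M 4. It was -0.02 on 29M 1, 0.00 on 29M 2, 0.04 on 29M 3 and 0.11 on 29M 4. Of the 42 genes, 32, 29 and 31 lay above their own mean on 3M 1, 29M 3 and 29M 4, and 10 and 12 did so on 3M 2 and 3M 3. On 3M 4, 29M 1 and 29M 2 the genes were split about evenly, with 19, 19 and 21 above their own mean. The age groups overlapped, whereas the 3 arrays of slide 1 (0.04 to 0.11) all lay above the 5 others (-0.08 to 0.00). All named genes had medians of 0.01 to 0.02 on slide 1 and of -0.01 to -0.00 on the others. Normalization aligned the arrays over all spots, which holds these medians near 0. They therefore cannot show whether the shift on slide 1 was particular to the proteasome genes. The share of spots well above background also went with the slide, at 76.2% to 80.6% on slide 1 and 81.7% to 85.0% on the other slides. Its part in these medians was not tested. Within slides, 29M minus 3M had a median over the 42 genes of -0.00 on slide 1 (21 positive), 0.06 on slide 2 (28 positive) and 0.04 on slide 3 (25 positive). With slide as a fixed block the median over the 44 genes was 0.04.

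**Figure D2:**
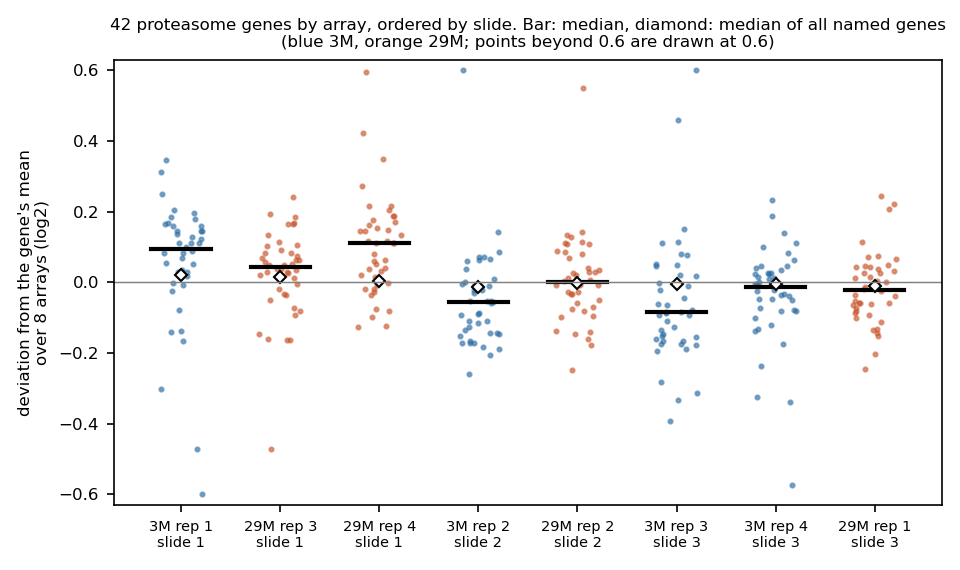
Deviation of each proteasome gene from its own mean over the 8 arrays (vertical axis, log2), by array (horizontal axis, ordered by slide), for the 42 genes above background. Each point is a gene (blue 3M, orange 29M), bars are medians over these genes, diamonds are medians of all named genes, and the 3 points beyond 0.6 in size, all of Psmb2, are drawn at 0.6. The medians of the 3 slide 1 arrays, 3M 1, 29M 3 and 29M 4, are the highest of the 8.

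The next comparison asked whether the immune form of each active site changed with age relative to its constitutive counterpart. The difference in log2 level between the immune and the constitutive gene was taken on each array, and only its change between the ages is read, since different probes do not share a scale. The Psmb8 minus Psmb5 difference was 0.69 higher in 29M (SE 0.43, exact permutation p 0.143, adjusted 0.386 over the 3 pairs). The Psmb9 minus Psmb6 difference was 0.51 higher (SE 0.38, exact permutation p 0.257, adjusted 0.386). The Psmb10 minus Psmb7 difference was 0.08 higher (SE 0.21, exact permutation p 0.829, adjusted 0.829). None of these two-sided tests passed, and the smallest p they can give is 0.0286.

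In both of the first pairs 1 array set the spread. Psmb8 was at 12.48, 10.96, 10.70 and 10.97 in 3M and at 12.09, 11.79, 12.10 and 11.66 in 29M, so that 3M 1 lay above every 29M array and the other 3M arrays below all of them. Psmb9 behaved alike, at 11.85, 10.21, 10.17 and 10.43 in 3M and at 11.36, 11.16, 11.23 and 10.94 in 29M. Psmb10 was at 15.19, 14.90, 15.12 and 14.82 in 3M and at 14.98, 15.05, 15.02 and 15.34 in 29M, and its groups overlapped. With all arrays none of the 3 was called, with changes of 0.63 (SE 0.34, limma adjusted p 0.391), 0.51 (SE 0.33, limma adjusted p 0.480) and 0.09 (SE 0.11, limma adjusted p 0.745). Without 3M 1, Psmb8 was 1.03 higher (SE 0.13, limma adjusted p 0.00573) and Psmb9 0.90 higher (SE 0.12, limma adjusted p 0.00579) in 29M, and both passed the thresholds. The differences to Psmb5 and Psmb6 were then 1.09 and 0.86 (exact permutation test, adjusted p over the 3 pairs 0.0857 for both). The call on Psmb8 and Psmb9 thus rested on whether 3M 1 was kept, and none of their constitutive counterparts was called in either case.

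**Figure D3:**
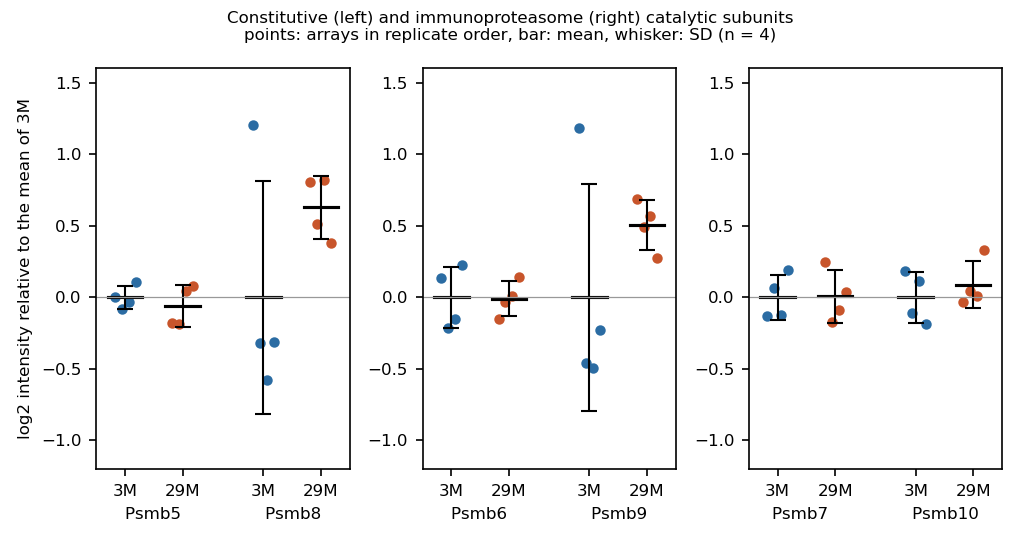
Log2 level relative to the mean of 3M (vertical axis) of the constitutive subunits Psmb5, Psmb6 and Psmb7 and of their immune counterparts Psmb8, Psmb9 and Psmb10, by age group (horizontal axis), with 1 point per array in replicate order, horizontal bars at group means and whiskers of 1 SD (n = 4). The leftmost 3M point of Psmb8 and of Psmb9, array 3M 1, lies above all arrays of 29M, and the other 3M points of these genes lie below them.

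Genes that work with the proteasome were examined from lists of their own. Of 38 such genes, 1 was called higher and none lower, a share near the 2.21% of all named genes. Among 13 proteasome-associated genes none was called and the median change was -0.03. They included Pomp, which matures the core and was at 15.53, 15.55, 15.57 and 15.54 in 3M and at 15.30, 15.19, 15.53 and 15.46 in 29M. Its change was -0.17 (SE 0.09, limma adjusted p 0.359), and its second probe gave 0.04. Fbxo7, an F-box protein that binds the proteasome regulator Psmf1, was the only one of the 13 whose groups did not overlap, with a change of 0.30 (SE 0.12, limma adjusted p 0.226), where 11.6% of all named genes had groups without overlap. The change was 0.19 without 29M 4. Among 14 genes for ubiquitin itself, its activating enzymes and the shuttles that carry substrates, none was called and the median was 0.03. Nploc4, a cofactor of the segregase Vcp, passed the adjusted p but not the size, at 0.41 (SE 0.10, limma adjusted p 0.091). When each array was left out in turn, that adjusted p ranged from 0.062 (without 29M 3, change 0.49) to 0.210 (without 29M 1).

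Of 11 genes that regulate proteasome transcription, Maff alone was called, where 2.21% of all named genes were. Maff, a small Maf protein that pairs with Nfe2l1 or Nfe2l2 on the antioxidant response element, was at 8.46, 8.64, 8.88 and 8.62 in 3M and at 9.51, 9.55, 9.30 and 9.71 in 29M. All arrays of 29M lay above all arrays of 3M, and Maff rose by 0.87 (SE 0.12, limma adjusted p 0.00955), or 1.83-fold. It was called whichever array was left out, with changes of 0.80 to 0.94. Its relative Mafg passed the adjusted p but not the size, at -0.29 (SE 0.07, limma adjusted p 0.093). When each array was left out in turn, that adjusted p ranged from 0.081 (without 3M 1, change -0.30) to 0.230 (without 3M 2). Nfe2l1 was at 9.18, 9.55, 9.64 and 9.55 in 3M and at 9.70, 9.76, 9.39 and 9.77 in 29M, a change of 0.17 (SE 0.13, limma adjusted p 0.521) with overlapping groups. Its lowest array was 3M 1, and the change was 0.07 without it and 0.26 without 29M 3.

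The genes of the interferon response, which shares Psme1, Psme2, Psmb8 and Psmb9 as known targets, gave a different picture. Of 17 such genes, 9 were called, all higher in 29M, and the median change was 0.63, where 2.21% of all named genes were called and their median was 0.01. Their mean level per array was 10.44 to 11.12 in 3M and 11.28 to 11.63 in 29M. Of 12 microglia markers 5 were called, against the same 2.21%, all higher, and their mean level was 13.53 to 13.83 in 3M and 13.95 to 14.21 in 29M. Both ranges were separate between the ages, whereas the mean level of the 42 proteasome genes above background, 14.44 to 14.51 in 3M and 14.48 to 14.60 in 29M, overlapped. Within slides 1, 2 and 3 the median difference of 29M minus 3M over the interferon genes was 0.28, 0.73 and 0.93. Over the microglia markers it was 0.29, 0.58 and 0.62. Both were thus lowest on slide 1, where 3M 1 was the only 3M array, but slide 2 also held 1 array of 3M. Slide and array cannot be told apart here, and the cause was not tested. Of 16 neuronal, 10 oligodendrocyte, 8 endothelial and 4 blood markers none was called, and the 1 astrocyte gene called of 10 was Gfap. Of 8 genes of T and B cells 1 was called, again beside 2.21% of all named genes, and this was Cd8a, which was chosen for naming after its values were seen. The part of these cell types in the proteasome values was not tested.

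**Figure D4:**
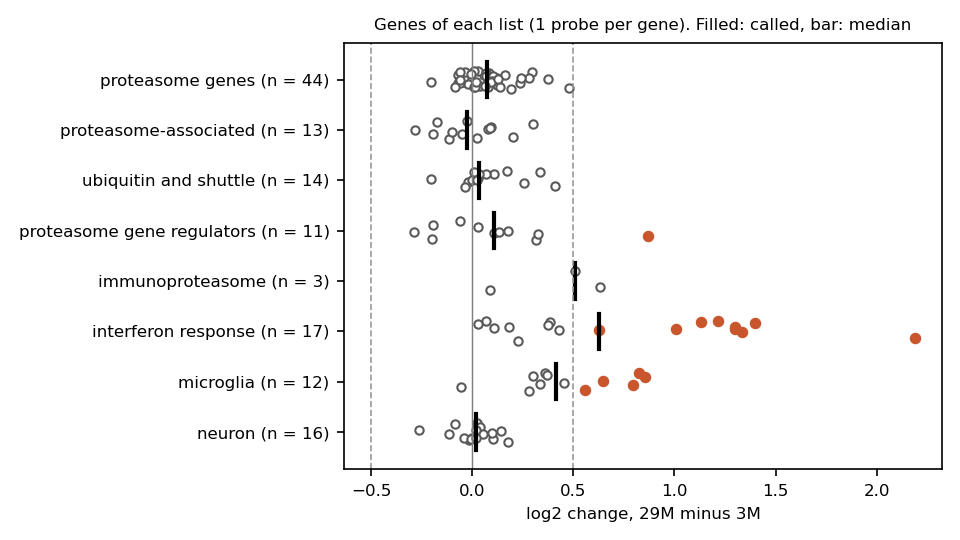
Log2 change from 3M to 29M (horizontal axis) of every gene in each list (vertical axis, with the number of genes), with 1 point per gene, filled where called, a bar at the median of each list and dashed lines at -0.5 and 0.5. The 44 proteasome genes have no filled point and a median of 0.07, while the interferon response list has a median of 0.63.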

How the data were processed

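Per the file headers, the authors deposited each array's scanner intensities as Feature Extraction 10.7.3.1 wrote them, before any scaling between arrays. This version and the array design differ from those in the study's methods. The median spot intensity replaced the mean intensity that had been planned as input. A further deposited table of intensities held, in all 8 columns, local background means (tolerance 0.001, medians 26.7 to 34.8), 7 of them from the array of another sample. Its scale, centring and direction as expression stay unknown, and it was not used.

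Control spots and 127 to 190 outlier spots per array were left out. A variance stabilising model, which understates changes of dim probes, was fitted in R 4.3.3 (own implementation, quantile 0.9, 7 iterations). Age was tested with limma 3.58.1 (Benjamini-Hochberg over 39408 probes with at least 3 usable arrays per group), with the thresholds of the study's methods. RefSeq (GRCm38.p6) named 26055 of 39429 probes by accession. The arrays were designed on another build, so promoters alone carry coordinates. On simulated data for this comparison (39408 probes, 200 changed), only a limma adjusted p below 0.1 was asked for, without the size threshold. By that rule 38% of changes of 0.5 and 82% of changes of 1 were recovered. Of the probes that passed it, 10.9% were false. These shares were not obtained for the calls reported here, which also need a change of 0.5.

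Values of every array were printed for called genes of the pathway lists, Psmb5 to Psmb7, Psmb8 to Psmb10, Psme1, Psme2, Nfe2l1 and Pomp. Others were named after their values were seen. The members and lists were chosen with earlier results of these data known. Precision is limited by 4 arrays per group, and p-values measure the spread between these samples, which may be technical. Alternatives were other normalizations, filters, thresholds, blocks and each array left out.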

Additional observations from a re-analysis of the deposited data

Results flagged for a closer look

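Among 110 sets of 4 arrays examined (each gene or pair difference in each age group), 8 held an array whose gap to its nearest neighbour exceeded 0.829 of the range of the set, where chance alone gives about 1 in 20, or 5.5. In 6 of the 8 the array was 3M 1. It was the highest of 3M for Psmd14 (13.54 against 12.86 to 12.96, gap 0.859 of the range), Psma6 (14.46 against 14.04 to 14.11, 0.832), Psmb8 (12.48 against 10.70 to 10.97, 0.848) and Psmb9 (11.85 against 10.17 to 10.43, 0.843). The Psmb9 minus Psmb6 difference was likewise highest there (0.857), and Psmd9 was lowest there (10.99 against 11.52 to 11.61, 0.849). Psmb11 was highest on 29M 1 (6.96 against 5.37 to 5.60, 0.854), the 1 array on which it was well above background. Nfe2l1 was lowest on 29M 3 (9.39 against 9.70 to 9.77, 0.829).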

How the results depend on the processing

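The count of proteasome genes called was 0 in each direction under every alternative run, and the median log2 change over these genes ranged from 0.041 to 0.095. The count with an unadjusted limma p under 0.05 was less stable, from 0 to 5 of the 44 genes. It was 5 without 3M 1 and 3 with slide as a fixed block, and the share of all named genes was not obtained for these runs. Over all probes, 478 higher and 300 lower calls became 308 and 178 at an adjusted p under 0.05, and 799 and 660 at an adjusted p under 0.1 with no minimum change. Leaving out each array in turn gave 258 to 801 higher and 135 to 610 lower calls. The highest counts came without 3M 1 and the lowest without 3M 2, with 267 and 146 without 29M 1, 277 and 168 without 29M 2, 304 higher without 3M 3 and 153 lower without 29M 4. The Psmb10 minus Psmb7 difference turned to -0.0128 with slide as a fixed block and ranged from -0.0429 (without 3M 4) to 0.203 when each array was left out. Pair differences were not run with slide as a random block.

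Psmb6 turned to 0.0464 with the processed signal scaled to its 75th percentile and to 0.0614 when that signal was variance stabilised. Psmb7 turned to -0.00675 with the processed signal scaled to its 75th percentile. When each array was left out in turn, Psmb6 ranged from -0.0783 to 0.0683 (turned without 3M 1, 3M 4, 29M 1 and 29M 2), Psmb7 from -0.0748 to 0.0697 (turned without 3M 1, 3M 3, 29M 1 and 29M 4), Psme2 from -0.0272 (without 3M 3) to 0.116 and Psmb2 from -0.255 (without 3M 1) to 0.788. For these turns the cause was not tested.

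Correlations of deviations between same-numbered samples were -0.26, 0.22, -0.25 and 0.08. Only the samples numbered 2 shared a slide, so these values cannot tell whether the numbers pair the samples. A replicate block on the sample numbers left 269 calls higher and 157 lower. Signal over background limits Psma8 and Psmb11, which were not well above it on any array of 3M.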
